A study of Mus musculus with 1600 samples.

Results

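The 8 genes followed here, whose transcripts were abundant in the earliest limb cells and scarce in later ones of the developing mouse limb, are Zbtb16, Pkdcc, Asb4, Lix1, Hsd11b2, Nr2f1, Amica1 and Mogat2, 8 of the 22092 gene symbols of the table. They were picked for high levels on the first embryonic day sampled (E10.5) and low levels on the 2 later ones (E12.5, E15.5). The drop between those stages is therefore a description, with no test. The choice had no numeric threshold, so no nearest member on either side of one can be given. The comparison of E15.5 with E12.5 was not used in the choice. Neither was the variation among E10.5 cells, though a high summed level at E10.5 favours genes read in many cells or deeply in a few.

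The cells are labelled as hind limb of SCX-GFP transgenic mice on a C57BL/6 background (Scx, scleraxis, is a tendon progenitor gene), at E10.5 (120 cells), E12.5 (160 cells) and E15.5 (200 cells). All 3 groups share strain, transgene and tissue label. Per the labels, limbs of littermates were in general combined, so each stage is 1 sample and no value below carries a test between stages. A Fluidigm C1 chip isolated the cells, which were sequenced in 12 library pools of 40 cells, of which pools 1 to 3 hold E10.5 cells, pools 4 to 7 E12.5 cells and pools 8 to 12 E15.5 cells. Pools are technical splits of 1 sample, not replicate animals, and the same 40 row indexes served in every pool.

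Of the 480 cells, 477 with at least 1000 detected genes were kept, 119, 158 and 200 by stage, with a median of 272198 counts per cell at E10.5, 250709 at E12.5, then 192228 at E15.5. Levels are counts summed over the cells of a stage or pool, scaled to 1000000 counts (CPM), and the 95% intervals, exact Poisson for sums and exact Clopper-Pearson for shares, cover counting error only. No source used here states which part of each transcript was read, so levels are not compared between genes. Fewer cells of a type and less RNA per cell cannot be told apart in a summed level.

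The label of the E10.5 cells was at odds with their limb identity genes. Pitx1, a factor of the hindlimb, had 0 counts in all 119 E10.5 cells, which allows up to 0.0889 CPM at 3 counts, against 169 CPM in E12.5 cells and 68.7 CPM in E15.5 cells. The forelimb factor Tbx5 stood at 67.9 CPM at E10.5, then at 0.739 CPM (E12.5) and 6.32 CPM (E15.5). Tbx4, another hindlimb factor, was read in 4 of 119 E10.5 cells. Every difference between E10.5 and a later stage below therefore also separates cells labelled hind limb that read Tbx5 and no Pitx1 from cells that read Pitx1. Stage and limb identity cannot be told apart here.

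A limb bud is a pocket of mesenchyme under a jacket of ectoderm, and its cells are patterned from shoulder or hip to digit before they condense into cartilage and spread into tendon and connective tissue. Proximal cells are marked by Meis factors and distal cells by the later Hox genes and by Msx1, while Hand2 marks the posterior side and Gli3 is strongest on the anterior side. Among the genes followed here, Zbtb16 (PLZF) and Nr2f1 (COUP-TF1) are transcription factors, Pkdcc is a secreted tyrosine kinase of the matrix, Asb4 is the substrate receptor of a ubiquitin ligase, Hsd11b2 and Mogat2 are enzymes, and Amica1 (JAML) is an adhesion receptor best known on leukocytes. The molecular function of Lix1 is less well defined. Loss of Zbtb16 alters limb skeletal patterning in mice, and loss of Pkdcc shortens their long bones.

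The upstream sequences of the 4 genes read in the largest shares of E10.5 cells are shown. Genes chosen for a drop between the same stages can so be compared letter by letter. Each is the RefSeq window from 250 bases before to 50 bases after the first annotated start in GRCm38.p6, written along the gene's own strand. Capitals mark matches on either strand to any of 5 motifs. The GC box was searched as GGGCGG and the TATA box as TATAAA. The CCAAT box was searched by its own letters. The core bound by Meis-type factors was searched as TGACAG, and a homeodomain core as TAATTA. No 2 matches overlap.
Pkdcc: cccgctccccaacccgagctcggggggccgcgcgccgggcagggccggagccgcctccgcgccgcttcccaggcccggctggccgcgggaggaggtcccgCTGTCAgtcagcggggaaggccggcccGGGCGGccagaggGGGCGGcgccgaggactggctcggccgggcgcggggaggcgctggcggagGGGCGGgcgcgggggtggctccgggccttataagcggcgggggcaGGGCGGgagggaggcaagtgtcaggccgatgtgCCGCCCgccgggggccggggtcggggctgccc
Asb4: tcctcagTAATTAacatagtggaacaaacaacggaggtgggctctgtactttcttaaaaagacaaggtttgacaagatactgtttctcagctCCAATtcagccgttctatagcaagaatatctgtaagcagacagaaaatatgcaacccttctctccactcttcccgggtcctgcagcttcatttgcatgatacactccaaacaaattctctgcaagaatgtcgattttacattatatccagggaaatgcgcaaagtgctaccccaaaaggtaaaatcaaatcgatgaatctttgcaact
Lix1: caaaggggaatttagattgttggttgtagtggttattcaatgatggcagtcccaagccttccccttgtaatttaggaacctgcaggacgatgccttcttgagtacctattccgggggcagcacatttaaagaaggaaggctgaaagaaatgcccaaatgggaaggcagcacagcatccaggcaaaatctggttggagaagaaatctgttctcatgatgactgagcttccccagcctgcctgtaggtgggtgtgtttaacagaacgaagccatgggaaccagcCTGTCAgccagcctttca
Nr2f1: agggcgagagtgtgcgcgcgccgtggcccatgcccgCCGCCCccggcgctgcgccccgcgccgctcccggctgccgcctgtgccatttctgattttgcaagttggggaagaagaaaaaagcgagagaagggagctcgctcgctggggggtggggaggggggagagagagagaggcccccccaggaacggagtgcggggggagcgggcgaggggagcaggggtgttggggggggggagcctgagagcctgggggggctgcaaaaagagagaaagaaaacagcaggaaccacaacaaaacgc

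These windows lie at chr17:83215033-83215332 on the plus strand for Pkdcc, chr6:5383136-5383435 on the plus strand for Asb4, chr17:17402436-17402735 on the plus strand for Lix1 and chr13:78198824-78199123 on the minus strand for Nr2f1. They differ widely in base composition, from 82.7% G and C in Pkdcc and 68% in Nr2f1 to 48.7% in Lix1 and 40.3% in Asb4, beside a median of 52.7% over 32851 promoter windows. The Pkdcc window holds 5 GC boxes and that of Nr2f1 holds 1, a motif found in 35.7% of all windows. TGACAG occurs once each in Pkdcc and Lix1, against 19.2% of all windows. TAATTA occurs once in Asb4, against 5.29% of all windows. The CCAAT box also occurs once there, against 37.4%. TATAAA occurs in none of the 4, against 13.6% of all windows. None of the 5 motifs is present in all 4 windows, and a match or its absence says nothing of a factor's binding.

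The call used throughout asked for a log2 ratio of at least 1 in size, with 5 added to each CPM, and for pools of the later stage that did not overlap those of the earlier one. By it all 8 genes were lower at E12.5 than at E10.5, as 2.83% of 13125 genes were, and all 8 were lower at E15.5 than at E10.5, as 5.01% were. A drop at both later stages was called for 1.77% of genes. The choice of the genes used these contrasts, so nothing is read from these counts. Among the 13125 genes ordered from the lowest ratio, the 8 stood between ranks 7 and 31 at E12.5 and between ranks 6 and 144 at E15.5. The plot of pool levels shows the values behind each.

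**Figure D1:**
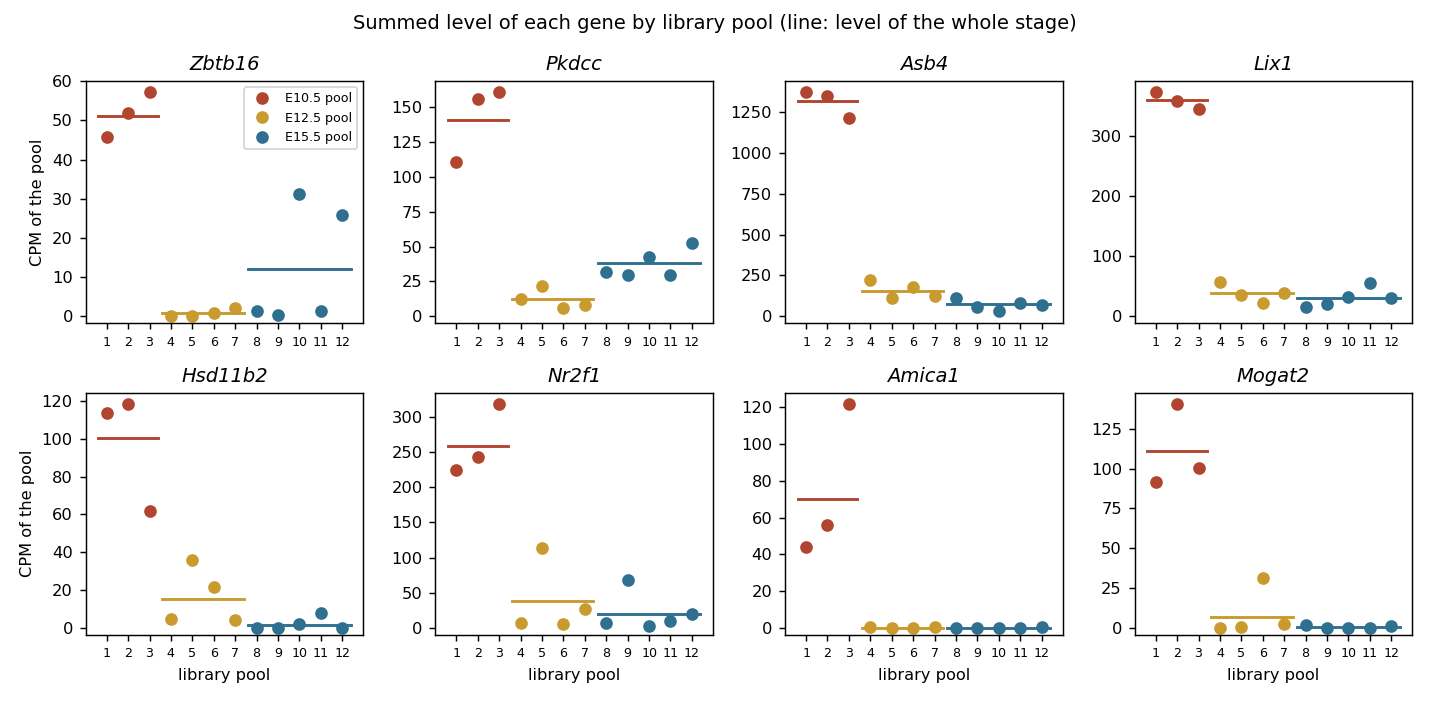
Summed level of each of the 8 genes (CPM, linear axes that differ between panels) in library pools 1 to 3 (E10.5), 4 to 7 (E12.5) and 8 to 12 (E15.5). Each point is a pool and each line the level of the whole stage. In every panel the 3 E10.5 pools lie above all later pools, and Pkdcc lies higher in the E15.5 pools than in the E12.5 pools.

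Zbtb16, a BTB zinc finger repressor, lies on chromosome 9 (GENCODE M21, GRCm38, chr9:48654297-48836222, minus strand). Its 3 E10.5 pools held 45.9, 51.9 and 57.2 CPM, its 4 E12.5 pools 0, 0, 0.920 and 2.08 CPM, and its 5 E15.5 pools 1.24, 0.371, 31.2, 1.28 and 25.8 CPM. The E12.5 level was 0.826 CPM against 51.2 CPM at E10.5, 62.0-fold lower (95% interval 45.0 to 87.9), and 202-fold lower without pool 7. At E15.5 it was 12.1 CPM against 51.2 CPM at E10.5, 4.25-fold lower (3.86 to 4.68). Pools 10 and 12 stood high at E15.5, and 1 cell held 67.2% of the counts of pool 10 and 1 cell 96.8% of those of pool 12. At E15.5 the level was above that of E12.5, but the pools overlapped and the gene was not called. Without pool 12 the E15.5 level was 7.74 CPM and the drop from E10.5 was 6.62-fold.

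Zbtb16 was also uneven within E10.5. It was read in 40 of 119 cells, and the 12 highest cells held 85.3% of its counts. The highest cell, in pool 3, had 1245 CPM and 19.1% of the stage's counts, and the highest 3 cells together held 43.5%. None of these 3 met the marker cut for another cell type used here.

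Nr2f1, an orphan nuclear receptor, lies at chr13:78188973-78199757 on the minus strand. GENCODE places an antisense RNA, A830082K12Rik, over its first part, with 123 exonic bases in common, and that RNA was not analysed here. The E10.5 pools held 225, 244 and 319 CPM of Nr2f1, the E12.5 pools 7.00, 114, 5.18 and 26.4 CPM, and the E15.5 pools 6.83, 68.0, 2.17, 9.44 and 19.5 CPM. The later levels were carried by few cells: at E12.5 the highest 3 cells held 88.2% of the counts and 1 cell of pool 5 held 48.2%. Its E12.5 level of 38.7 CPM was 6.67-fold below the 258 CPM of E10.5 (6.33 to 7.02), and 17.7-fold below it without pool 5. At E15.5 it had 20.3 CPM, 12.7-fold below E10.5 (11.9 to 13.6), and 25.6-fold below it without pool 9.

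The receptor's close relative Nr2f2 (COUP-TF2) was not called in any stage comparison, with 156, 196 and 87.0 CPM in order of stage. In the list of Nr2f and retinoid receptor genes without Nr2f1, 1 of 10 was higher and 0 lower at E12.5 than at E10.5. Of all genes 7.76% were higher and 2.83% lower. The 1 was Rarg, a retinoic acid receptor, at 79.5 CPM against 30.4 CPM. At E15.5 1 was higher and 1 lower than at E10.5, where 11.2% of all genes were higher and 5.01% lower. The lower one was Nr2f6, at 50.0 CPM against 109 CPM.

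Pkdcc, the secreted kinase, lies at chr17:83215292-83225070 on the plus strand. The E10.5 pools held 111, 156 and 161 CPM, the E12.5 pools 12.47, 21.4, 6.10 and 8.17 CPM, and the E15.5 pools 32.0, 29.8, 42.7, 29.5 and 52.7 CPM. The level was 11.6-fold lower at E12.5 than at E10.5 (10.7 to 12.7) and 3.71-fold lower at E15.5 than at E10.5 (3.51 to 3.92). It was the only one of the 8 called higher in E15.5 than in E12.5 cells, as 2.99% of all genes were. Pkdcc stood at 37.9 CPM at E15.5 and 12.1 CPM at E12.5, 3.14-fold higher, and every E15.5 pool lay above every E12.5 pool.

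Pkdcc was read in 79 of 200 E15.5 cells (39.5%, 32.7 to 46.6) and in 34 of 158 E12.5 cells (21.5%, 15.4 to 28.8), and after thinning to 50000 counts per cell in 62 of 185 and 23 of 149. The highest E15.5 cell held 8.93% of the counts. Of the E15.5 cells with cartilage markers, 30 of 58 had a Pkdcc count, at 41.9 CPM, and of those with connective tissue markers 73 of 174, at 41.1 CPM. The 29 cells with skin markers stood at 8.76 CPM. Of 8 other secretory pathway kinases tested, 2 were higher and 0 lower at E12.5 than at E10.5, beside 7.76% and 2.83% of all genes. Of the 2, 1190002N15Rik was also the 1 gene higher at E15.5 than at E10.5 (56.1 CPM against 17.2 CPM), beside 11.2% of all genes. Fam198b alone was higher in E15.5 than in E12.5 cells (34.3 CPM against 8.15 CPM), beside 2.99% of all genes.

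Asb4, an ankyrin repeat protein that hands substrates to a cullin ligase and is known from embryonic vessels, lies at chr6:5383386-5433022 on the plus strand. Its E10.5 pools held 1372, 1350 and 1214 CPM, its E12.5 pools 221, 115, 178 and 122 CPM, and its E15.5 pools 110, 58.1, 33.6, 82.3 and 66.5 CPM. Against E10.5 the drop was 8.47-fold at E12.5 (8.26 to 8.69), then 18.1-fold at E15.5 (17.5 to 18.8). Asb4 was also the only one of the 8 called lower in E15.5 than in E12.5 cells, at 72.8 CPM against 156 CPM (2.14-fold, 2.05 to 2.23), as 1.63% of all genes were. That call lay at its limit, with a log2 ratio of -1.05, and it was lost without pool 4 (-0.83), pool 9 (-0.99) or pool 10 (-0.91).

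Nearly every E10.5 cell read Asb4, 118 of 119, with quartiles of 527 and 1918 CPM around a median of 1109 CPM. The share includes cells with markers of other types. The 1 cell with red cell markers had 1265 CPM, and all 5 with endothelial and 2 with skin markers had a count. At E12.5 the median cell had 3.56 CPM while 46 of 158 cells still had at least 100 CPM, and at E15.5 29 of 200 did. Later cells with markers of several types held Asb4. At E15.5 the 10 cells with endothelial markers had 329 CPM and the 3 with muscle progenitor markers 347 CPM, beside 52.7 CPM in the 149 cells without markers of another cell type. Of the 1264 endothelial counts, 2 cells held 448 and 432, the first being the cell with 1185267 counts in all. At E12.5 the 6 cells with tendon markers had 656 CPM, but only 3 of them had a count. Of their 1296 counts, 1 cell held 92.0%, and it also met the cartilage and connective tissue cuts. The 3 cells with endothelial markers had 329 CPM, with 63.4% of the counts in 1 cell. Of the 10 other genes of the Asb family and its ligase that were tested, none was called at E12.5 against E10.5. Beside this, 7.76% of all genes were higher and 2.83% lower. At E15.5 1 (Asb3, 25.4 CPM against 5.22 CPM) was higher and 0 lower than at E10.5, beside 11.2% and 5.01% of all genes.

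Lix1, a gene first known from the nervous system and the limb, lies at chr17:17402672-17459387 on the plus strand. An antisense RNA, Gm26873, spans its first part with 0 exonic bases in common and was not analysed here. The E10.5 pools held 373, 358 and 344 CPM, the E12.5 pools 57.4, 35.9, 21.4 and 38.1 CPM, and the E15.5 pools 15.53, 19.6, 32.4, 55.4 and 31.1 CPM. Relative to E10.5 it was 9.14-fold lower at E12.5 (8.70 to 9.61), then 12.1-fold lower at E15.5 (11.5 to 12.8). The pools of E15.5 (29.6 CPM in all) and E12.5 (39.3 CPM) overlapped.

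Later Lix1 counts were present in many cells, but few cells held most of them. At E12.5 the 16 highest cells held 61.9% of the counts, and at E15.5 the 20 highest held 55.9%. A count was present in 153 of 200 E15.5 cells and 128 of 158 E12.5 cells, yet only 35 and 44 of them had 10 counts or more. Cells with markers of other types held it too. Of 29 E15.5 cells with skin markers 19 had a count, at 18.1 CPM. Of 7 with macrophage and leukocyte markers, a cut that a mast cell can also meet, 5 had a count, at 21.5 CPM. The share of later cells with a Lix1 count is therefore not read as expression. Its only family member in the table, Lix1l, was not called, with 7.79, 13.8 and 17.8 CPM by stage.

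Hsd11b2, which inactivates corticosterone and so keeps glucocorticoid away from cells, lies at chr8:105518755-105523988 on the plus strand. The E10.5 pools held 113, 118 and 61.9 CPM, the E12.5 pools 4.70, 35.8, 21.5 and 4.22 CPM, and the E15.5 pools 0, 0, 1.92, 8.04 and 0 CPM. It was 6.58-fold lower at E12.5 than at E10.5 (6.07 to 7.15), and 11.6-fold lower without pool 5. At E15.5 it was 59.4-fold lower than at E10.5 (47.4 to 75.3), on 78 counts in 5 of 200 cells, and 256-fold lower without pool 11. The stages E15.5 (1.69 CPM) and E12.5 (15.3 CPM) stood 9.02-fold apart but their pools overlapped. The gap was 5.13-fold without pool 5 and 38.9-fold without pool 11, where the pools no longer overlapped and the gene was called lower.

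Among the other genes that handle this hormone, Nr3c1, the glucocorticoid receptor, had 139 CPM at E15.5 against 11.6 CPM at E10.5, 12.0-fold higher, and 16.2 CPM at E12.5. H6pd, which feeds cofactor to the activating enzyme, had 24.2 CPM at E15.5 against 2.67 CPM at E10.5. Fkbp4, a receptor chaperone, was lower, at 179 CPM against 555 CPM. In the list of 7 tested corticosteroid genes 2 were higher and 1 lower at E15.5 than at E10.5, beside 11.2% and 5.01% of all genes, and none was called at E12.5. With so few genes nothing particular to the list is read from these counts. Hsd11b1, the activating enzyme, was not tested, with 9 counts at E15.5 and 0 at both earlier stages.

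Mogat2, an enzyme of triacylglycerol synthesis best known from the intestine, lies at chr7:99219084-99238619 on the minus strand and shares 55 exonic bases with the antisense RNA Gm45012, which was not analysed here. The E10.5 pools held 91.5, 141 and 100.4 CPM, the E12.5 pools 0, 0.717, 31.2 and 2.22 CPM, and the E15.5 pools 2.04, 0, 0, 0 and 1.45 CPM. The drop from E10.5 was 16.4-fold at E12.5 (14.6 to 18.5) and 104-fold without pool 6, where 1 cell held 55.7% of the pool's counts. At E15.5 it was 131-fold (95.8 to 185), on 39 counts in 4 cells, and 241-fold without pool 8. Of those 4 cells, 2 carried endothelial markers and held 35 of the 39 counts. Mogat1, its paralog, had at most 16 counts in any stage. Of 13 other acylglycerol genes tested, 1 was higher and 0 lower at E12.5 than at E10.5, beside 7.76% and 2.83% of all genes. The 1 was Plin2, a lipid droplet coat gene, at 169 CPM against 71.2 CPM. At E15.5 1 was higher and 0 lower than at E10.5, beside 11.2% and 5.01% of all genes.

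Amica1 (Jaml in GENCODE) lies at chr9:45079183-45108534 on the plus strand. The E10.5 pools held 44.3, 56.1 and 122 CPM, the E12.5 pools 0.256, 0, 0 and 0.485 CPM, and the E15.5 pools 0, 0, 0, 0 and 0.454 CPM. The later counts were 10 in 2 cells at E12.5 and 5 in 1 cell at E15.5, and the drops of 324-fold (176 to 676) and 648-fold (277 to 1998) rest on them. Without pool 7 the E12.5 drop was 741-fold, and without pool 12 no E15.5 count remained. Amica1 had 0 counts in the 7 E15.5 cells with macrophage and leukocyte markers. JAML is known on leukocytes, but at least 1 of these cells also met the mast cell cut. The 0 is therefore not read as absence from macrophages. The junctional adhesion gene Cxadr, whose product binds JAML, had 119 CPM at E12.5 against 48.0 CPM at E10.5 and was called higher.

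The 3′ end of Amica1 overlaps Gm10684, a long noncoding RNA on the opposite strand at chr9:45107176-45135606, by 1359 bases, 397 of them exonic in both. No source used here states whether counting used strand, so reads from the shared stretch cannot be told apart. Gm10684 had 1076 counts at E10.5 (31.9 CPM, 30.0 to 33.9), and 0 counts at both later stages. It was read in 35 of the 54 E10.5 cells with an Amica1 count and in 0 of the 65 without. Gm10684 counts were above Amica1 counts in 0 of 119 cells and equal to them in 2. Among 34 cells with at least 10 Amica1 counts, 12 had a ratio of Gm10684 to Amica1 of 0.75 or more, and 4 had no Gm10684 count. The level of Amica1 is thus given for a row that may hold both transcripts.

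**Figure D2:**
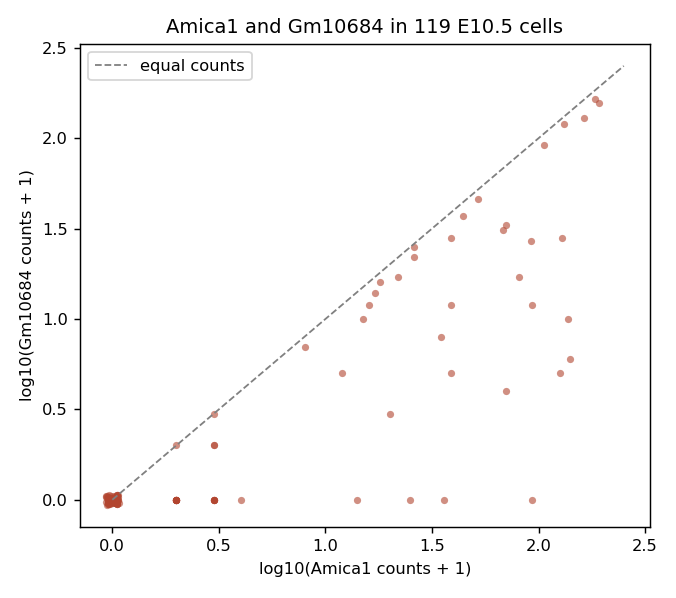
Counts of Amica1 (horizontal, log10 of count plus 1) and of the overlapping antisense RNA Gm10684 (vertical, same scale) in each of the 119 E10.5 cells. Each point is a cell, the 65 cells with neither are shifted slightly to be visible, and the dashed line marks equal counts. Apart from that shift, no cell lies above the line.

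At the level of single cells the 8 genes ran from widely read to patchily read. In 115 E10.5 cells thinned to 50000 counts each, which left out 4 shallower cells, Asb4 was read in 98.3% (93.9 to 99.8) and Lix1 in 94.8% (89.0 to 98.1). Pkdcc was read in 72.2% (63.0 to 80.1) and Nr2f1 in 63.5% (54.0 to 72.3), or in 47.0% for Nr2f1 with 3 counts asked for. The lower shares were those of Mogat2 with 43.5% (34.3 to 53.0), Hsd11b2 with 42.6% (33.4 to 52.2), Amica1 with 32.2% (23.8 to 41.5) and Zbtb16 with 24.3% (16.8 to 33.2). Before thinning the shares ran from 33.6% for Zbtb16 to 99.2% for Asb4. At E15.5, where 15 of 200 cells were left out, 24.3% of cells had Asb4, 33.5% Pkdcc, 7.03% Nr2f1 and 5.95% Zbtb16.

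The spread among E10.5 cells followed the same order. Share and spread both depend on a gene's counts, so this order is a description and not a trait of the genes. The coefficient of variation of the cell CPM was 0.754 for Asb4, 1.28 for Lix1, 1.59 for Pkdcc, 1.72 for Nr2f1, 1.92 for Mogat2, 2.07 for Hsd11b2, 2.26 for Amica1 and 3.33 for Zbtb16. The 27 highest cells held at least 50% of the Asb4 counts, while 4 cells sufficed for Zbtb16. Nr2f1 cells ranged widely, with quartiles of 4.48 and 385 CPM. Level and depth were related most for Mogat2, whose CPM ranked with total counts at a rho of 0.41 over 119 cells, and least for Pkdcc.

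**Figure D3:**
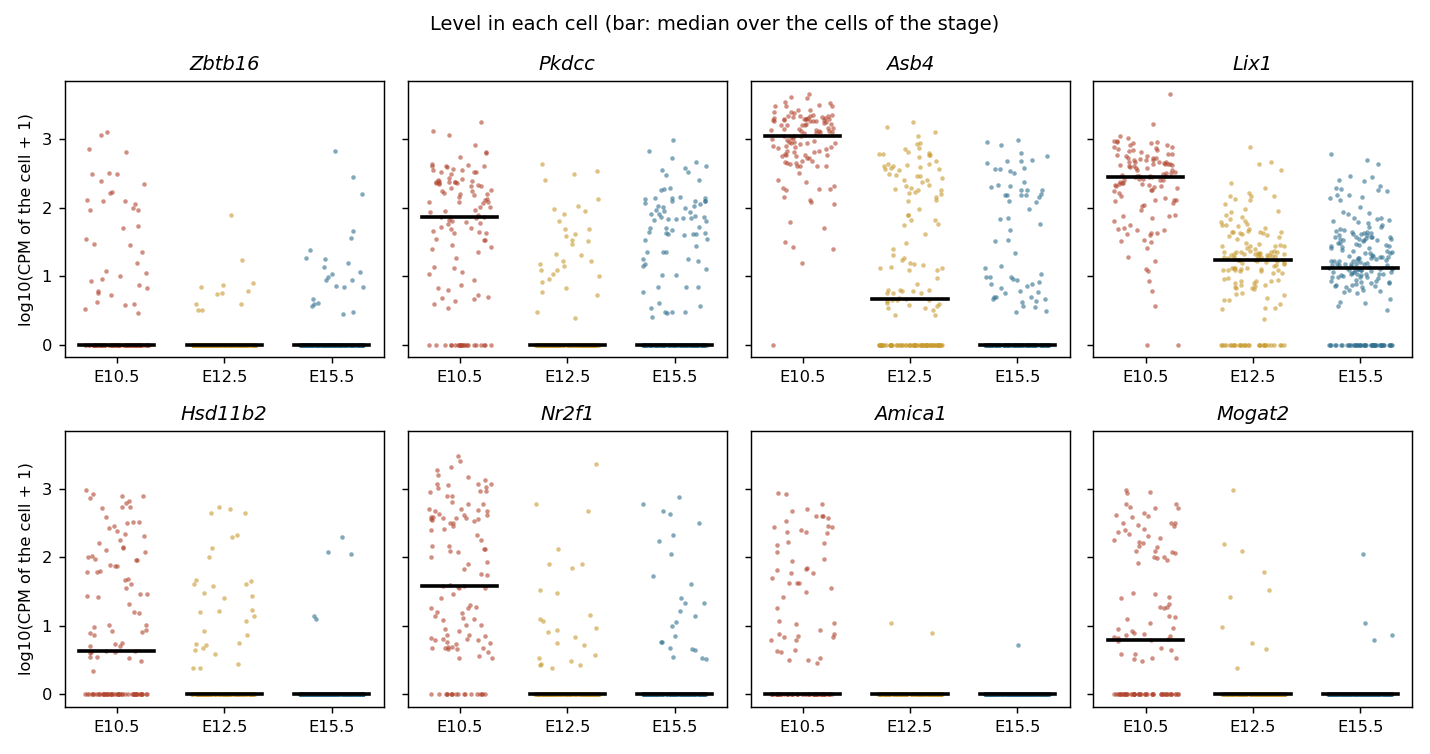
Level in every kept cell, as log10 of CPM plus 1, at E10.5 (119 cells), E12.5 (158 cells) and E15.5 (200 cells). Points are cells and bars medians. Asb4 and Lix1 fill nearly all E10.5 cells, Zbtb16 and Amica1 have a median of 0 at every stage, and Lix1 alone keeps a median above 10 CPM at E12.5 and E15.5.

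Cell by cell, E10.5 cells read more of the 8 genes than later cells did, which follows from how the genes were chosen. Whether genes were read together more often than their single shares give was not tested. The median was 5 of the 8 genes per thinned cell at E10.5, with 97 of 115 cells reading at least 4, and none reading all 8. At E12.5 the median was 1 gene, with 5 of 149 cells reading at least 4, and at E15.5 it was 1 gene, with 2 of 185. None of the E10.5 cells read fewer than 2, whereas 49 of 185 E15.5 cells and 26 of 149 E12.5 cells read none. Lix1, whose share of later cells with a count is not read as expression, is part of this tally. Over the other 7 genes the median was 4 at E10.5 and 1 at both later stages, with at least 4 read in 70 of 115, 1 of 149 and 0 of 185 cells, and none read in 0, 49 and 81.

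**Figure D4:**
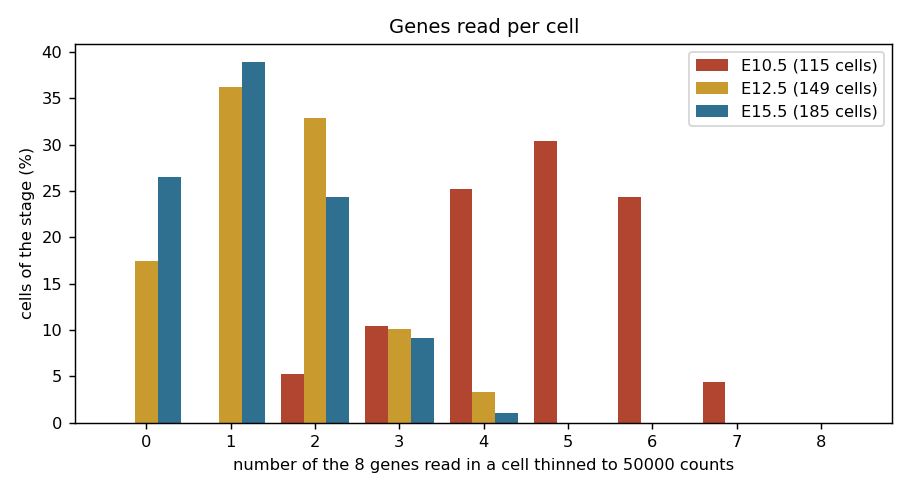
Share of cells (percent) by the number of the 8 genes with a count, after thinning each cell to 50000 counts, for E10.5 (115 cells), E12.5 (149 cells) and E15.5 (185 cells). E10.5 cells centre on 5 genes, and cells of both later stages on 1.

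Rank coefficients between pairs of the genes were small across E10.5 cells. Over 115 thinned cells the 28 pairs had Spearman's rho between -0.20 (Hsd11b2 with Nr2f1) and 0.24 (Pkdcc with Nr2f1), with a median of 0.06 and 9 pairs below 0. Asb4 with Hsd11b2 (0.23) was the only other pair at 0.2 or more. Zbtb16, for instance, was read with Pkdcc in 20 cells and without it in 8. Coefficients of this size in sparse counts are no finding, and the points share libraries and depth. Low values do not show that the genes varied independently, since cells without a count can hide a relation.

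Some of the genes ranked with position genes. Among the 30 patterning genes examined, which do not include Hoxb3, the largest coefficients were those of Nr2f1. For it the 3 highest likenesses among 6107 genes read in at least 20% of cells were Meis1 (rho 0.40), Sox9 (0.39), the factor of cartilage condensation, and Abl1 (0.38). Within library pools the first 2 were 0.38 and 0.40. Among 30 patterning genes, Nr2f1 ranked lowest with Hoxa10 (-0.34) of the proximal list and Hoxa11 (-0.26) of the distal list. The proximal list ran both ways for Nr2f1. Hoxd10 and Pbx2 (-0.17 each) were also negative, while Meis1, Meis2 (0.27) and Irx5 (0.25) were its highest. Pkdcc ranked highest with Hoxb3 (0.44), Furin (0.33) and Rbm4b (0.31), and among patterning genes with Meis2 (0.28) and Irx3 (0.27).

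The levels behind some of these coefficients are given below as E10.5 cells divided by a position gene or by Sox9, a condensation gene. The division uses the same cells, and its genes were chosen after the values were seen, so it is a description and adds no support. The 50 cells with a Sox9 count had 513 CPM of Nr2f1 (485 to 542), against 168 CPM in the 65 without (154 to 182), 3.06-fold higher, and 3.23, 3.27 and 2.84-fold higher in the 3 pools. Nr2f1 was read in 86% of cells with Sox9 and 46.2% of those without. The division by Meis2 gave 409 CPM in 75 cells with it and 148 CPM in 40 without, but pools differed, at 5.21, 20.6 and 1.17-fold. The 42 cells with Hoxa11 had 189 CPM of Nr2f1 and the 73 without 392 CPM, while in pool 3 the fold was 1.03.

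The coefficients of Pkdcc with the distal genes ran both ways, from -0.20 (Hoxd13) and -0.19 (Hoxa11) to 0.20 (Dusp6) and 0.23 (Lhx9), and Hoxa10 of the proximal list was at -0.19. Coefficients of this size are no finding. The 32 cells with a Hoxd13 count had 76.9 CPM of Pkdcc (63.9 to 91.7) and the 83 without 172 CPM (159 to 185), a ratio of 0.45 that was 0.41, 0.54 and 0.41 in pools 1 to 3. The 53 cells with Lhx9 had 160 CPM and the 62 without 133 CPM. With Meis2 the Pkdcc level was 174 CPM in cells with it and 91.5 CPM in cells without, 1.16, 1.83 and 3.23-fold by pool. Zbtb16 had 79.5 CPM in Meis2 cells and 14.0 CPM in the rest, 5.68-fold, with pool values of 85.5, 5.01 and 2.24-fold, and 12.2-fold without the highest cell on each side. Amica1 had 30.5 CPM in the 42 cells with Hand2 and 97.3 CPM in the 73 without, a ratio of 0.31, with pool values of 0.67, 0.03 and 0.36.

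**Figure D5:**
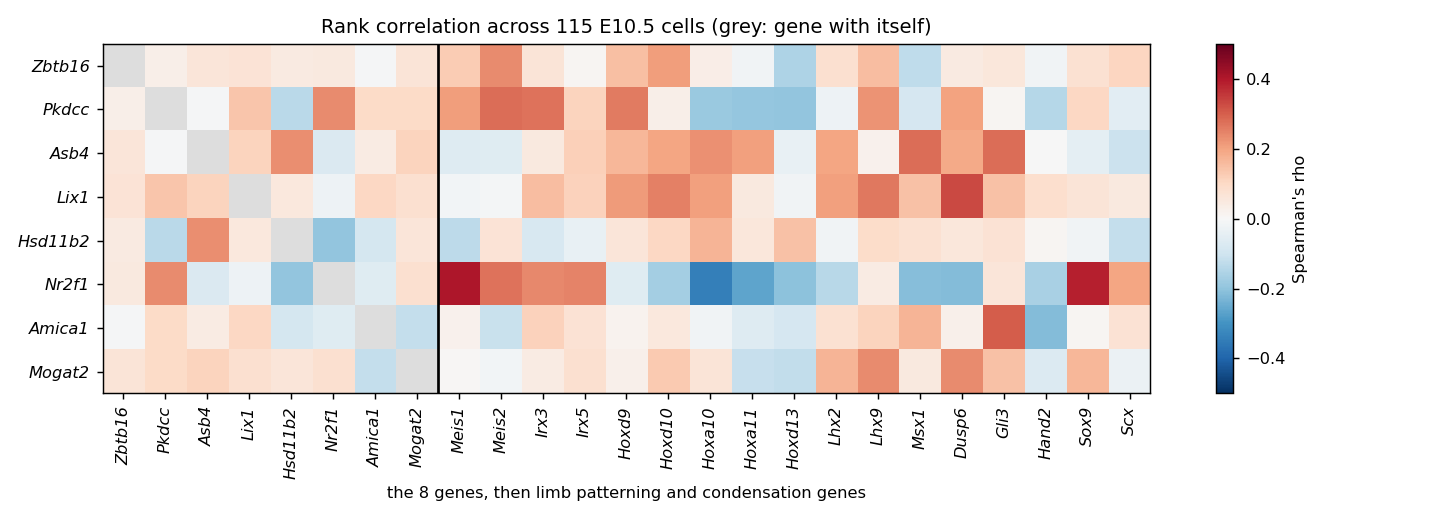
Spearman's rho across 115 E10.5 cells, each thinned to 50000 counts, between the 8 genes (rows) and, left of the line, each other, and right of it limb patterning and condensation genes. Red is positive, blue negative, on a scale from -0.5 to 0.5. No square of the left block is above 0.24, and the deepest colours are Nr2f1 with Meis1, Sox9 and Hoxa10.

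The remaining 6 genes had other genes at the top of their rankings. Lix1 ranked with Smc6 (0.34), Fbn2 (0.33) and Dusp6 (0.33), a target of fibroblast growth factor signals. Asb4 ranked with Cxxc5 (0.34), Mpp6 (0.33) and Ap1g1 (0.31), and among patterning genes with Gli3 and Msx1 (0.28 each). Hsd11b2 ranked with Adamts10 (0.32), Pbx2 (0.31) and Ski (0.31), Mogat2 with Csrp2bp (0.41), Add1 (0.35) and Pdcl3 (0.33), and Zbtb16 with Vps53 (0.41), Dnajb1 (0.38) and Bub1b (0.37). Amica1 ranked with Gm10684 at 0.77, far above Reps1 (0.41) and Ube2v2 (0.41). These are the top 3 of 6107 coefficients for each gene, and are given as a description. For Amica1 with Gm10684, reads of the shared exonic stretch may count in both rows, so 0.77 may not compare separate transcripts.

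Likeness over the 12 pools named other genes, and since pools follow the stages it repeats the choice of the genes. By the root mean square difference of log2 CPM around its mean, over 4089 genes, Tbx5 was nearest to Zbtb16 (0.58), Hoxd9 to Lix1 (0.42), Trim71 to Asb4 (0.56) and to Hsd11b2 (0.78), Sall4 to Amica1 (0.51), Sall3 to Nr2f1 (1.00), Ppp1r16b to Pkdcc (0.55) and Asb4 to Mogat2 (0.76). Hoxd9, a proximal Hox gene, had 135, 12.9 and 4.47 CPM in order of stage. Trim71, a stem cell regulator, had 72.9, 10.7 and 1.78 CPM. Of the 12 genes of a list of early embryonic regulators, a list that holds Tbx5 and Trim71 and was chosen with such results known, 8 were lower at E12.5 and 10 at E15.5 than at E10.5, beside 2.83% and 5.01% of all genes. Their median log2 ratios were -2.33 and -2.57, beside 0.17 and 0.15 over all genes. Igdcc3 had 7.69 CPM at E12.5 and 1006 CPM at E10.5.

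The number of cells carrying markers of other types differed between the stages, and the values stand beside the drop. Cells with at least 3 markers of a type, 3 counts in each and 1000 CPM over the list were counted, a range rather than a type. A cell could meet several cuts, and some E15.5 cells met both the endothelial and the connective tissue cut. The numbers therefore overlap and do not count cells of a type. Connective tissue markers were carried by 0 of 119 cells at E10.5, 51 of 158 at E12.5, then 174 of 200 at E15.5. Their sum ran from 214 to 273 CPM over the E10.5 pools, 983 to 1689 CPM over the E12.5 pools and 5373 to 8529 CPM over the E15.5 pools. Cartilage markers were carried by 1, 47 and 58 cells, skin markers by 2, 6 and 29, and endothelial markers by 5, 3 and 10. At E10.5 9 of 10 connective tissue markers had a count (Dpt had 0), and 8 of 12 cartilage markers did (Acan, Col9a2, Col11a2 and Matn1 had 0). With a list total of 500 or 2000 CPM the E15.5 connective tissue cells numbered 183 or 147.

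Within cells that met no marker cut for skin, endothelium, muscle, blood, mast cells or glia, all 8 genes stayed called lower at both later stages. Asb4 had 157 CPM in 147 such cells of E12.5 and 52.7 CPM in 149 of E15.5, against 1372 CPM in 111 of E10.5. Nr2f1 had 42.1 CPM and 14.2 CPM in these later cells, against 273 CPM at E10.5. For Pkdcc the E15.5 level was 47.1 CPM, against 136 CPM at E10.5, and for Zbtb16 17.1 CPM, against 55.6 CPM, both narrower gaps than over all cells. The part of the connective tissue and cartilage markers in the drop was not tested. The 5 E10.5 endothelial marker cells had 754 CPM of Asb4 and 219 CPM of Pkdcc, beside 49.1 CPM of Lix1 and 1.39 CPM of Zbtb16, on few cells. The cells with the most counts at E10.5 and E15.5 (844596 and 1185267) each held all 12 endothelial markers, and no doublets were removed.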

How the data were processed

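Single-cell RNA was counted in 480 hind limb cells from a Fluidigm C1 chip, made into Nextera XT libraries, per the labels' protocols. The deposited values are raw counts per gene and cell; the submitters' processing notes name Bowtie2, featureCounts and mm10. Versions, annotation, strand use and molecular identifiers are not stated there, so PCR copies may be among the counts. Another 1120 samples were not analysed here. Of 22738 entries, identical repeats were kept once and others added up. A cell was kept with 1000 or more detected genes, which dropped 1 at E10.5 and 2 at E12.5. CPM values were computed per stage, pool and cell. Ratios used genes with a count in at least 10 cells. Shares used cells thinned to 50000 counts (4, 9 and 15 shallower cells left out by stage). No doublet caller was run.

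The members and gene lists (29 lists, 305 of 306 entries matched) were chosen with earlier results of these data known. Beyond the 8 members, genes were named by list (up to 4 called genes with at least 20 CPM, largest ratios first), by likeness (the 3 highest rho, or the 3 smallest pool differences), and by the 3 highest and lowest patterning genes. Genes named outside this rule, the splits by Sox9, Meis2, Hoxa11, Hoxd13, Lhx9 and Hand2 and the 1000 CPM marker cut were chosen after values were seen. Splits by Meis1, Msx1, Gli3 and Scx were also computed and are not given. Each split was computed for all 8 members, and only some of these values are given. Coordinates come from GENCODE M21 (GRCm38), and promoters from RefSeq (5 of 8 members matched). Python 3.11.15, pandas 2.3.3, scipy 1.17.1 and edgeR (TMM factors only) were used, and the calls were tested on simulated data, where not every changed gene was called, so a gene not called is not shown to be unchanged. Alternatives covered scaling, added CPM, cell filters, the highest cells and each library pool.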

Additional observations from a re-analysis of the deposited data

Results flagged for a closer look

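Of 16 groups of pools examined (8 genes at E12.5 and E15.5), 4 had a library pool far from the others. Chance flags about 1 in 20 groups of evenly spread values, a rate that does not hold for pools filled with zeros. Hsd11b2 at E15.5 reached 8.04 CPM in pool 11, against 1.92 CPM in the next pool, and 3 cells of that pool held its counts. Nr2f1 at E15.5 reached 68.0 CPM in pool 9, against 19.5 CPM in the next, with 65.5% of the pool's counts in 1 cell that carried 11 endothelial markers. Amica1 at E15.5 had 0.454 CPM in pool 12 and 0 in the other 4 pools, all from the cell with 1185267 counts, a gap that any gene counted in 1 pool only would show. Mogat2 at E12.5 reached 31.2 CPM in pool 6, against 2.22 CPM in the next, with 55.7% of the pool's counts in 1 cell.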

How the results depend on the processing

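All 8 genes were called lower at E12.5 and at E15.5 than at E10.5 under every alternative run, and none of the 128 and 136 recomputed ratios lost that call. The comparison of E15.5 with E12.5 was less steady. The count of 1 gene called lower became 0 with TMM factors, with 20 CPM added and with a stricter cell filter, and ran from 0 to 2 when a pool was left out. Asb4 accounts for each 0. Hsd11b2 was called as well without pool 11 (-1.91 on the log2 scale). Pkdcc kept its higher call except with 20 CPM added (0.85). Nr2f1, not called, had -0.79 and 0.37 without pool 5. The cause was not tested. Shares of E10.5 cells depend on depth: without thinning 7 of 8 lay outside the interval given, and 6 of 8 with 3 counts asked for. The exclusion of cells with markers of another type was added after seeing the data and changed no count. No paired analysis was possible because each stage is 1 sample. The limits are 1 sample per stage, counts that PCR can multiply, an E10.5 label that differs from its identity genes, and reads of overlapping genes that cannot be told apart.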
